A study of Mus musculus with 16 samples.

Results

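The genes described here encode proteins of the mitochondrial ribosome: 71 genes of the 22180 measured, whose symbols start with Mrpl or Mrps followed by a digit. They were taken from array probe sets annotated with 1 gene symbol, and a gene with more than 1 such probe set is represented by the brightest, judged by its mean over the 16 arrays. The 71 genes had 80 such probe sets, and 9 genes had 2. A further 7 genes of the family (Mrpl30, Mrpl33, Mrpl41, Mrpl43, Mrpl44, Mrpl53 and Mrps6) were on probe sets annotated with several symbols and were not used here. The cells were mouse group 2 innate lymphoid cells (ILC2s), lymphocytes that make type 2 cytokines and respond to the alarmin cytokine IL-33. Lung ILC2s came from naive C57BL/6J mice (n = 2 arrays) and from C57BL/6J mice given IL-33 by the intranasal route, taken at day 4 (n = 3), at week 2 (n = 3) and at 4 months (n = 2) after the treatment began. The lung drains to the mediastinal lymph node (mLN), and ILC2s isolated from this node represent day 4 (n = 3) and week 2 (n = 3) of IL-33 treatment; the labels of these node samples name no strain. No genetic change is named for any group, and the sources used here give neither the age of the mice nor the markers used to isolate the cells. Each array was labelled a biological replicate, and the number of arrays limits the precision of every value.

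Mitochondria carry their own small genome, which encodes core subunits of the respiratory chain and ATP synthase, and their own ribosome to translate it. Both ribosomal RNAs come from mitochondrial DNA, whereas every protein of this ribosome is encoded in the nucleus, made in the cytosol and imported. Genes named Mrps belong to the small subunit, which holds the messenger RNA and its decoding site, and genes named Mrpl to the large subunit, which forms the peptide bond and holds the exit tunnel. Some proteins have relatives in bacterial ribosomes and others are found in mitochondria only. In lymphocytes, mitochondrial protein synthesis is known to be part of the growth that follows activation. Of the 71 genes, 45 encode large-subunit proteins, 28 of them of bacterial families, and 25 encode small-subunit proteins, 15 of them of bacterial families. Mrps18a and Mrps30 were counted in the large subunit, where their proteins sit despite the names. Mrps36 was counted in neither, because its protein is now regarded as part of the 2-oxoglutarate dehydrogenase complex.

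Promoters of these genes are shown first because a set of short motifs, known from promoters of nuclear genes for mitochondrial proteins, was searched in them. RefSeq promoter windows of 300 bases, 250 before and 50 after the start, on build GRCm38.p6, were matched for 62 of the 71 genes, with 68 windows in all. On either strand, CCGGAAG, a core bound by ETS factors such as GABPA, was in 23 of 68 windows (33.8%), against 8.86% of all 32851 windows and 11.4% of the 20611 windows of genes on the array. TGCGCA, a part of the NRF1 site, was in 20 (29.4%), against 7.76% and 9.74% in the same order. AAGATGG, the core of the YY1 site, was in 13 (19.1%), against 6.34% and 6.35%. It can share its first bases with the end of the ETS core. The motif of SP factors, GGGCGG, was in 37 (54.4%), against 35.7% and 46.5%, and the E-box CACGTG, bound by Myc among others, in 7 (10.3%), against 7.15% and 8.07%. Some windows overlap, so that a site in them was counted more than once. The windows of Mrpl2 hold the same E-box and the same SP motif, and those of Mrpl46 and Mrps11 share an SP motif. The shares are therefore of windows and not of genes. At least 1 of the ETS, NRF1 and YY1 motifs was in 40 of the 68 windows (58.8%), against 20.4% of all windows and 24.2% of those of genes on the array. A match is a match of letters and not a measured site.

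The 150 bases before the start are printed for 5 genes that recur in the results, read 5′ to 3′ along the gene's strand, with the searched motifs and their reverse complements in capitals. Mrps18a (chr17:46110854-46111003, plus strand) and Mrpl52 (chr14:54426759-54426908, plus strand) were lower at 4 months than at day 4. Mrpl36 (chr13:73330859-73331008, plus strand) and Mrpl17 (chr7:105811088-105811237, minus strand) were higher at day 4 than in naive lung. Mrps5 (chr2:127587276-127587425, plus strand) was lower at 4 months in each comparison made, and none of the 5 motifs is in this stretch of it. The SP motif is in the rest of its searched window, which is not printed.
Mrps18a: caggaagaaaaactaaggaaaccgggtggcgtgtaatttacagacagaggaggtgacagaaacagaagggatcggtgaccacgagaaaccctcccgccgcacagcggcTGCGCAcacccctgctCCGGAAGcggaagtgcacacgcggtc
Mrpl52: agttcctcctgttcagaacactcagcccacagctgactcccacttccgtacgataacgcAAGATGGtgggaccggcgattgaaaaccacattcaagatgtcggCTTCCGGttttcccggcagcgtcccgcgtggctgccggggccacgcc
Mrpl36: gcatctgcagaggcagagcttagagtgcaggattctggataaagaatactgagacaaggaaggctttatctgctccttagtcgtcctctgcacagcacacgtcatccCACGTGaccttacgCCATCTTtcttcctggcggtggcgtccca
Mrpl17: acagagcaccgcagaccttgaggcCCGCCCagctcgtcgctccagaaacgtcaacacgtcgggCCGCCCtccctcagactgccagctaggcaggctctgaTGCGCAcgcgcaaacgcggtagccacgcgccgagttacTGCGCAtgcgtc
Mrps5: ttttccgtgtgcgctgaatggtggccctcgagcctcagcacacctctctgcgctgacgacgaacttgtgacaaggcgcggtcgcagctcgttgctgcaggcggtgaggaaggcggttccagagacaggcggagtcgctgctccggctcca

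All expression values are log2 signals per probe set, so a difference of 1 is a doubling of signal. The naive and 4-month arrays had a narrower range of signal than the others: the interquartile range over all probe sets was 2.35 to 2.64 on these 4 arrays and 2.92 to 3.06 on the other 12. Quantile normalization in RMA acts on single probes, before their summary into probe sets, so arrays processed together need not share this range. The sources used here do not say whether these arrays were processed apart or from less RNA. In each comparison of these groups with the others, the change and this difference therefore cannot be told apart in the deposited values alone. The lowest correlation between replicates was 0.937 in naive and 0.947 in 4-month lung, and at least 0.977 in the other groups. Of 13 ILC2 markers listed 11 were measured, and their mean per array was 9.12 to 9.75 in every group. The mean of 13 of 13 macrophage markers was 5.97, 5.97 and 4.35 on the day 4 lung arrays and 4.17, 4.06 and 5.43 on the week 2 lung arrays. It was 4.97 and 4.18 in naive lung, 4.86 and 4.35 at 4 months and 3.55 to 3.90 in the node. Neutrophil markers (5 of 5) were at 6.15 and 6.05 on the 4-month arrays and at 5.86 and 3.69 on the naive arrays. They were at 3.59 to 6.23 in day 4 lung, at 3.59 to 5.49 in week 2 lung and at 2.99 to 3.12 in the node. T cell markers (10 of 10) were at 6.82 and 6.64 in naive lung against 5.08 to 5.55 elsewhere. Lung epithelium markers (5 of 5) were at 4.49 and 4.56 in naive lung, at 5.09 to 5.81 at day 4, at 5.01 to 6.01 at week 2 and at 4.58 and 4.63 at 4 months. Among them Scgb1a1, a secreted protein of club cells, was at 4.52 and 5.06 in naive lung, at 9.92, 7.97 and 7.58 at day 4, at 11.02, 10.17 and 6.31 at week 2 and at 3.77 and 4.33 at 4 months, while Sftpc, Sftpb and Epcam were at 3.32 to 4.82 on every array. The part of these differences in the results below was not tested, but results are also given without the 3 arrays of the highest macrophage marker means, which were replicates 1 and 2 of day 4 lung and replicate 3 of week 2 lung. In that fit day 4 lung was represented by its replicate 3 alone, so its counts also reflect the loss of replication.

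The 71 genes as a group were highest in the node and in day 4 lung and lowest at 4 months. Averaged over the genes, the level was 5.72 and 5.85 on the naive arrays, 6.54, 6.37 and 6.08 on the day 4 lung arrays, 6.00, 6.10 and 6.00 at week 2, and 5.28 and 5.60 at 4 months. In the node it was 6.54, 6.65 and 6.29 at day 4 and 6.48, 6.53 and 6.27 at week 2. Both 4-month arrays lay below every other array, both naive arrays lay below the remaining 12, and day 4 lung and the node overlapped. Among single genes, the highest of the 6 group means was in day 4 mLN for 37 of 71 genes (52.1%, against 14.0% of all genes) and in week 2 mLN for 24 (33.8%, against 11.7%). The lowest was in 4-month lung for 49 (69.0%, against 25%) and in naive lung for 19 (26.8%, against 16.3%). No gene of the 71 had its highest group mean at 4 months. Markers of dividing cells (14 of 15 measured) followed a like order in the lung, at 4.72 on both naive arrays, at 6.27 to 6.66 at day 4, at 5.10 to 5.21 at week 2 and at 4.52 to 4.89 at 4 months. Of these 14 genes 11 rose from naive to day 4 (limma adjusted p under 0.05), where 10.8% of all genes were called higher. From day 4 to 4 months 13 of them fell at the same threshold, where 16.6% of all genes were called lower. The part of these 14 genes in the results on the 71 genes was not tested. In RNA of a pooled population, fewer cells expressing a gene and less RNA per cell cannot be told apart.

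**Figure D1:**
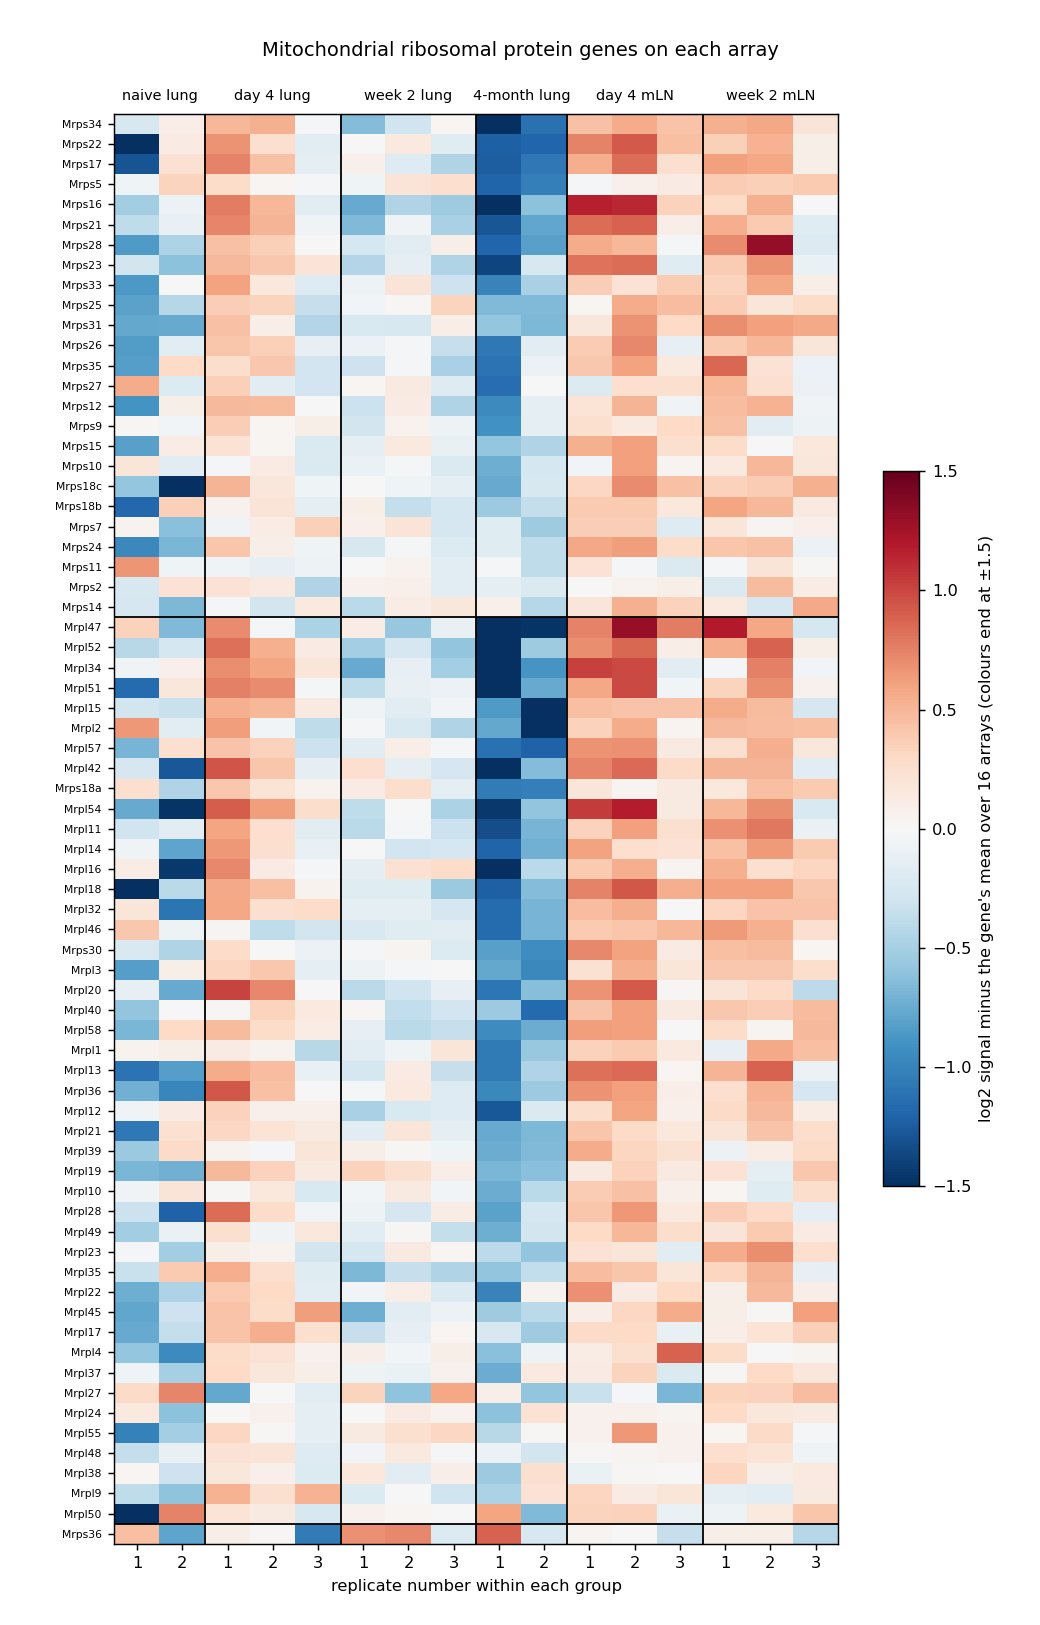
Log2 signal of each of the 71 genes (rows, small subunit above large subunit, Mrps36 last) on each of the 16 arrays (columns, by group and replicate number), minus the gene's own mean over the arrays. Most rows are blue on the 4-month arrays, where 49 genes had their lowest group mean, and red in the node, where 37 and 24 genes had their highest at day 4 and week 2.

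**Figure D2:**
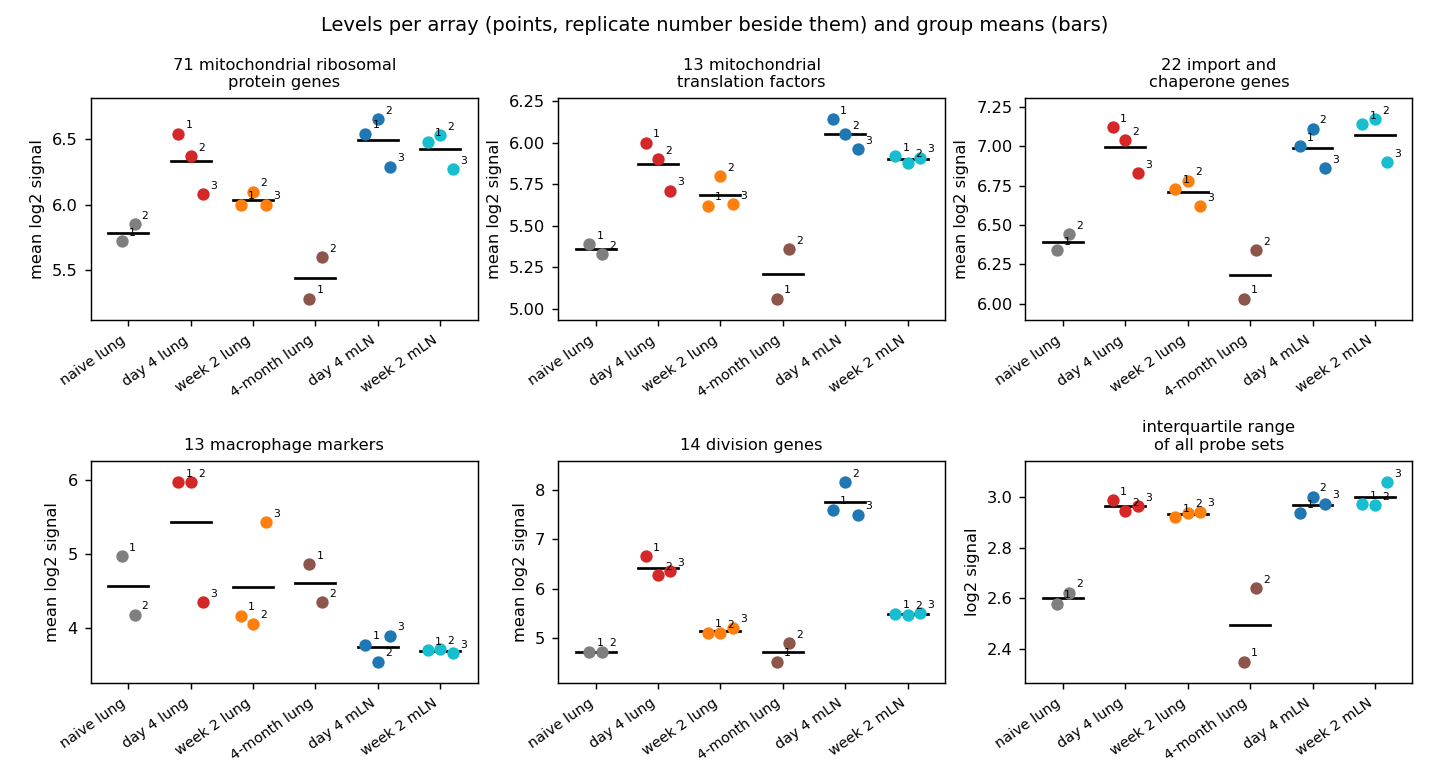
Mean log2 signal per array (points, with replicate number) and group means (bars) of the 71 genes, of 13 mitochondrial translation factors, of 22 import and chaperone genes, of macrophage markers and of division genes, with the interquartile range of all probe sets. The 71 genes were at 5.28 and 5.60 on the 4-month arrays, which also had narrow signal ranges, and at 6.54 and 6.37 on the day 4 lung arrays with a macrophage marker mean of 5.97.

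At day 4 of IL-33 treatment, a number of mitochondrial ribosomal protein genes had a higher signal in lung ILC2s than in naive ones. Against naive lung, 17 of 71 genes rose and 0 fell at a limma adjusted p under 0.05, where 10.8% of all genes tested were called higher and 5.73% lower. The median change of the 71 genes was 0.56, against -0.06 for all genes, and 60 of the 71 changes were above 0. In 31 of 71 genes every day 4 array lay above both naive arrays, which held for 22% of all genes. Genes called higher belonged to both subunits, 13 of 45 in the large (28.9%) and 4 of 25 in the small (16%).

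Mrpl54, a mitochondria-specific protein near the stalk that recruits translation factors, rose most. Its signal was 6.70 and 5.99 in naive lung and 8.36, 8.08 and 7.72 at day 4, and it was 7.08, 7.45 and 6.98 at week 2 and 6.01 and 6.87 at 4 months. The day 4 arrays were all above the naive ones, and the rise was 1.71 ± 0.36 (SE), or 3.26-fold (limma adjusted p = 0.004). Mrpl18, a protein of the central protuberance, the crest of the large subunit, was at 5.0 and 6.33 in naive lung and at 7.30, 7.18 and 6.78 at day 4. It rose by 1.42 ± 0.30 (adjusted p = 0.00464), with naive replicate 1 the lowest array of all. Mrpl36, a small protein of a bacterial family, was at 6.33 and 6.08 in naive lung and at 7.98, 7.49 and 7.05 at day 4, and rose by 1.31 ± 0.28 (adjusted p = 0.0047). Its other probe set differed by 1.29. Mrps18c, a bacterial-family protein of the small subunit and a member of the S18 family, was at 4.70 and 3.72 in naive lung. It was at 5.80, 5.45 and 5.22 at day 4, a rise of 1.28 ± 0.26 (adjusted p = 0.00329), and its other probe set differed by 0.7.

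Mrpl19, a bacterial-family protein at the contact between the subunits, rose with a small spread. It was at 4.86 and 4.83 in naive lung, at 6.03, 5.89 and 5.68 at day 4, at 5.89, 5.79 and 5.65 at week 2 and at 4.86 and 4.92 at 4 months. Its rise at day 4 was 1.02 ± 0.19 (adjusted p = 0.00168), its rise at week 2 was 0.93 ± 0.19 (adjusted p = 0.00588), and the 4-month arrays lay next to the naive ones. Other large rises were those of Mrpl13, at 1.26 ± 0.31, Mrpl42, at 1.17 ± 0.37, Mrpl28, at 1.12 ± 0.29, and Mrpl20, at 1.02 ± 0.32, with adjusted p-values from 0.0119 to 0.0378. Mrpl45, which lies at the exit of the peptide tunnel and anchors the ribosome to the inner membrane, rose by 0.99 ± 0.24 (adjusted p = 0.0108). The other 7 genes called, Mrps24, Mrpl17, Mrpl4, Mrpl9, Mrpl55, Mrps31 and Mrps25, rose by 0.74 to 0.97. Mrpl27, picked out after its values were seen as the lowest of the 71 changes, was at -0.82 ± 0.33 (adjusted p = 0.0963). Its signal was weak, with group means of 3.41 to 4.26, where the 40th percentile of all values was 3.73.

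The number of genes called changed with single arrays and with the scale. In the average over the 71 genes day 4 lung replicate 3 was the lowest of its group, and it was also the one with few macrophage transcripts (4.35). Without day 4 replicates 1 and 2 and week 2 replicate 3, 0 of 71 genes were called by limma, 10 were at an unadjusted p under 0.05 and the median change was 0.32. Day 4 lung was replicate 3 alone in that fit, and the 17 genes called with all arrays kept changes of 0.28 to 1.37 there. Without day 4 replicate 1 alone, 11 genes were called. With quantile normalization repeated on the deposited values, which removes the difference in signal range, 7 genes were higher and 1 (Mrpl46) lower, with a median of 0.26. Array weights left 9 genes, and Mrpl18, Mrpl19, Mrpl36, Mrpl54 and Mrps18c were called under both of these settings.

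At week 2, few of these genes passed the test against naive lung ILC2s. Against naive lung, 4 of 71 genes rose and 0 fell (limma adjusted p under 0.05), where 6.75% of all genes were called higher and 2.87% lower, and the median change was 0.24, against -0.04 for all genes. With repeated quantile normalization that median was -0.00, so no direction is given for the group as a whole. The 4 genes were Mrps18c, at 1.01 ± 0.26, Mrpl55, a protein counted here with the central protuberance, at 0.99 ± 0.23, Mrpl19, at 0.93 ± 0.19, and Mrpl4, a bacterial-family protein of the large subunit, at 0.81 ± 0.23. All 4 were also among the 17 that rose at day 4, in a comparison that shares the naive arrays. Mrpl55 was at 5.92 and 6.42 in naive lung, at 7.24, 6.95 and 6.80 at day 4 and at 7.07, 7.17 and 7.24 at week 2, with both IL-33 groups above naive. The count was 2 without any 1 of the week 2 lung arrays and 10 without naive replicate 2, and Mrpl19 alone was called under all 25 alternative settings.

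From day 4 to week 2 in the lung, 0 of 71 genes were called by limma, where 0.419% of all genes were higher and 1.39% lower. There were 56 genes with a change below 0, a median of -0.26 (0.01 for all genes), 16 genes at an unadjusted p under 0.05 and a smallest adjusted p of 0.0991, that of Mrpl45. In 19 of 71 genes the 3 week 2 arrays all lay below the 3 day 4 arrays, against 11.9% of all genes. With array weights 12 genes were lower, among them Mrps16, a bacterial-family protein of the small subunit, at -1.04 ± 0.22 (adjusted p = 0.00902), and Mrpl52, at -1.01 ± 0.23 (adjusted p = 0.0137). Fits of the groups compared alone called 3 lower. With the 3 macrophage-marker-high arrays left out the median was 0.04. Day 4 was then replicate 3 alone, the lowest of its group in the average over the 71 genes. That fit cannot tell the macrophage transcripts from the level of a single array, so no direction is drawn from it.

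**Figure D3:**
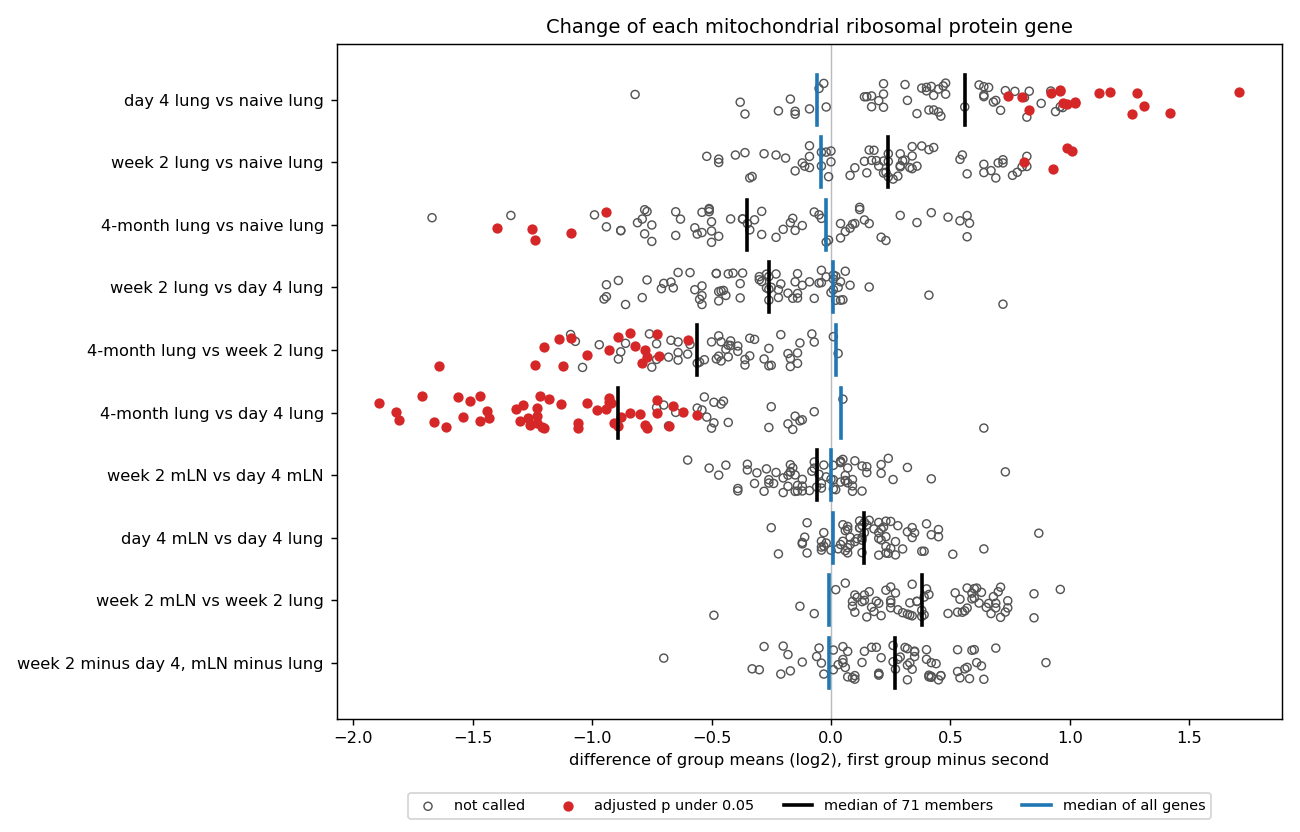
Difference of group means (log2) of each of the 71 genes (points, filled where the adjusted p was under 0.05) in 10 comparisons, with the median of the 71 genes (black) and of all genes (blue). The medians were 0.56 for day 4 against naive lung and -0.89 for 4 months against day 4, and 0 genes were called in the comparisons that involve the node.

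By 4 months after IL-33 most of these genes were lower than at day 4. Against day 4 lung, 47 of 71 genes fell and 0 rose (limma adjusted p under 0.05), where 16.6% of all genes were called lower and 9.02% higher. The median change was -0.89, against 0.04 for all genes, 69 of 71 changes were below 0, and in 57 genes both 4-month arrays lay below all 3 day 4 arrays (26.4% of all genes). Of the 17 genes that rose from naive to day 4, 12 were among the 47 that fell again, in comparisons that share the day 4 arrays, and the remaining 5 were Mrpl4, Mrpl55, Mrpl9, Mrps18c and Mrps24. The 4-month and naive arrays, which had the narrower signal ranges, lie on the low side of both comparisons.

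Mrps34, a mitochondria-specific protein of the small subunit, was at 6.19, 6.23 and 5.67 at day 4, at 5.04, 5.39 and 5.72 at week 2 and at 4.16 and 4.57 at 4 months. It fell by 1.66 from day 4 to 4 months (SE 0.24, 3.16-fold, limma adjusted p = 0.000172). In naive lung it was at 5.45 and 5.79, above both 4-month arrays, and in the node at 5.88 to 6.27. Mrpl15, a bacterial-family protein of the large subunit, was at 6.41, 6.37 and 6.01 at day 4, at 5.81, 5.71 and 5.84 at week 2 and at 5.03 and 4.36 at 4 months. It fell by 1.56 (SE 0.24, 2.96-fold, adjusted p = 0.000316), and the 3 lung times did not overlap.

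Mrps5, a bacterial-family protein at the entry of the messenger RNA channel, was at 6.25 and 6.65 in naive lung, at 6.6, 6.35 and 6.29 at day 4 and at 6.26, 6.51 and 6.57 at week 2, and these 3 groups overlapped. It was at 5.12 and 5.29 at 4 months and at 6.29 to 6.71 in the node, so the 4-month arrays stood apart from the other 14. It fell by 1.20 from day 4 (SE 0.18, 2.3-fold, adjusted p = 0.00026). Its other probe set differed by -0.40 and was also lowest at 4 months. Mrps18a, the S18-family protein of the large subunit, was at 7.0, 6.80 and 6.65 at day 4 and at 5.54 and 5.57 at 4 months, a fall of 1.26 (SE 0.21, adjusted p = 0.000606). It was at 6.45 to 6.86 at week 2, at 6.14 and 6.85 in naive lung and at 6.63 to 7.04 in the node.

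The largest falls had wider spreads. Mrpl47, at the exit tunnel, was at 6.15, 5.41 and 4.96 at day 4 and at 3.26 and 3.97 at 4 months, a fall of 1.89 (SE 0.41, adjusted p = 0.00398). Its other probe set differed by -0.93. Mrpl52, a mitochondria-specific protein of the large subunit, was at 9.55, 9.25 and 8.84 at day 4 and at 6.61 and 8.18 at 4 months, where the pair differed by more than the day 4 arrays did, and fell by 1.82 (SE 0.36, adjusted p = 0.00218). Mrpl34, a bacterial-family protein, was at 7.64, 7.54 and 7.12 at day 4 and at 5.18 and 6.06 at 4 months, and fell by 1.81 (SE 0.36, adjusted p = 0.00192). Mrpl51, Mrpl54 and Mrpl42 fell by 1.71, 1.61 and 1.54 with standard errors of 0.36 to 0.39.

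**Figure D4:**
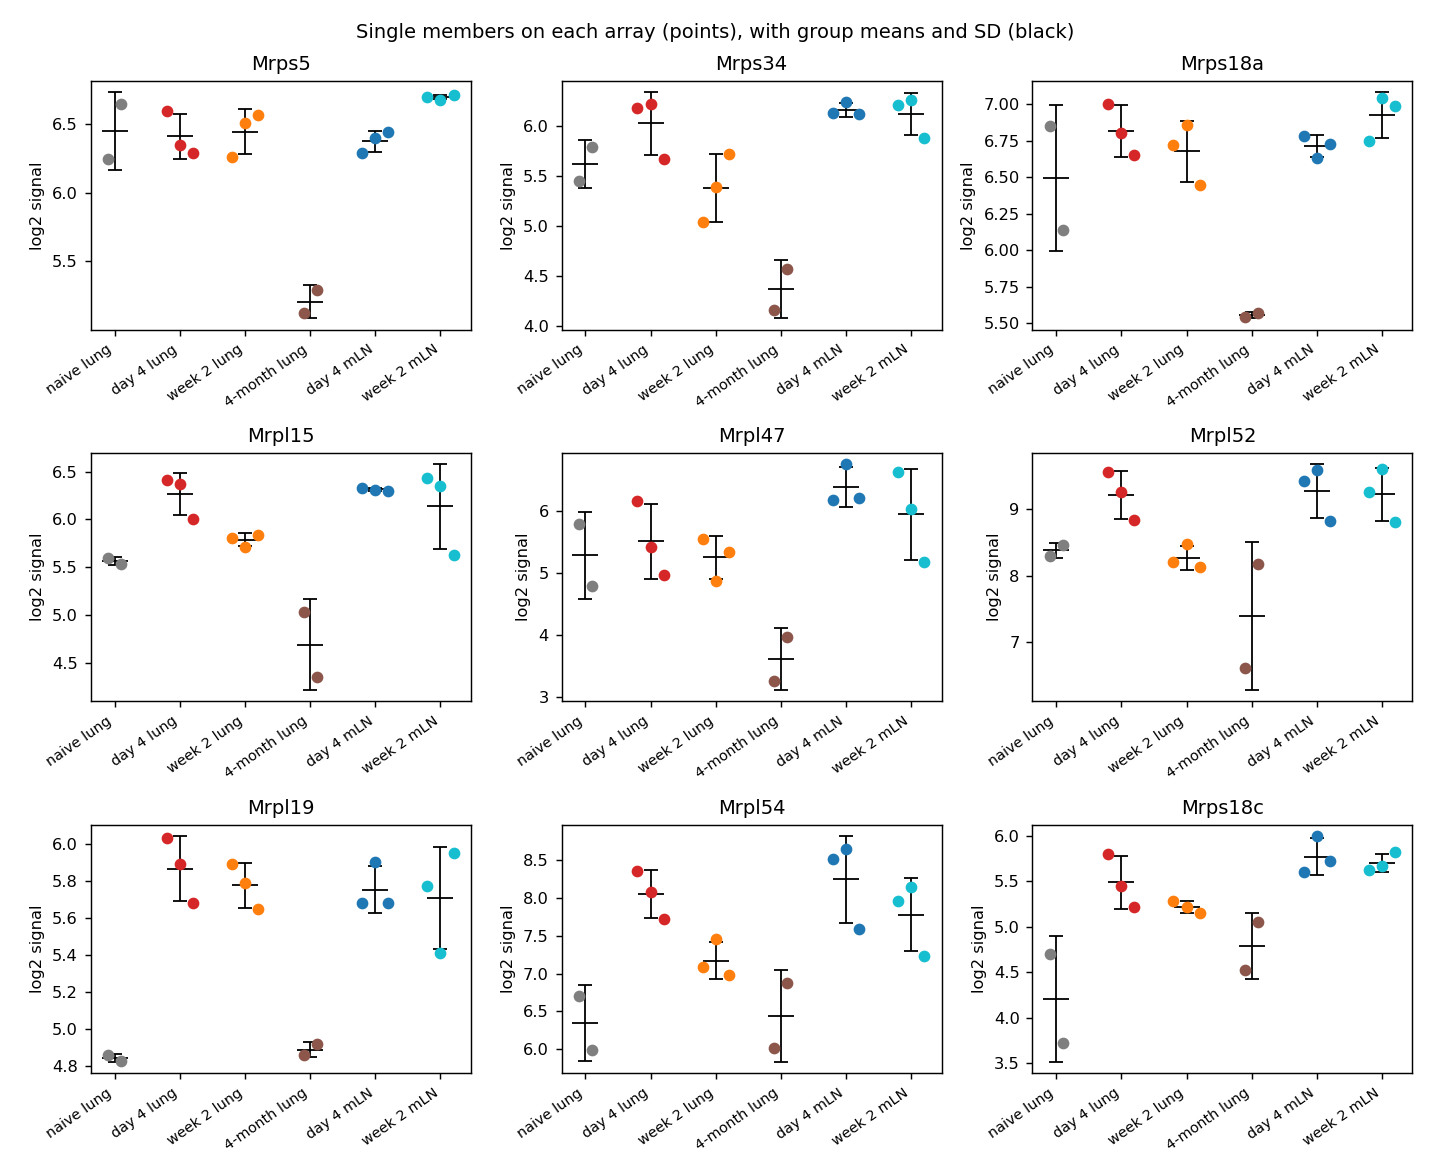
Log2 signal of 9 genes on each array (points) with group means and SD (black), by group; the vertical axes differ and do not start at 0. Mrps5, Mrps34, Mrps18a and Mrpl15 were lowest on both 4-month arrays, Mrpl19 was near 4.9 in naive and 4-month lung and between 5.41 and 6.03 elsewhere, and Mrpl52 was at 6.61 and 8.18 on the 4-month arrays.

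The fall at 4 months kept its direction in the group median under each alternative, and its count did not. Repeated quantile normalization gave a median of -0.62 and 18 genes lower, and array weights left 31, with 16 genes called under both. Without 4-month replicate 1, the array with the narrowest signal range, 11 genes were called lower and the median was -0.69, and without day 4 replicate 1 the count was 31. With the 3 macrophage-marker-high arrays left out, 4 genes were called, Mrpl15, Mrps18a, Mrps34 and Mrps5, and the median was -0.67. These same 4 genes were called in each of the 25 alternative fits. Mrpl10, a stalk protein that fell by 0.56 (SE 0.20, adjusted p = 0.048), was at 0.02 (adjusted p = 0.95) with repeated quantile normalization. Centring the array medians moved the median of all genes from 0.04 to -0.10 and that of the 71 genes to -1.03.

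Against week 2 lung, 17 of 71 genes were lower at 4 months and 0 higher (limma adjusted p under 0.05), where 11.5% of all genes were called lower and 4.85% higher. The median change was -0.56, against 0.02 for all genes, and 69 of 71 changes were below 0. In 44 genes both 4-month arrays lay below the 3 week 2 arrays, against 26.7% of all genes. Mrpl47 fell by 1.64 (SE 0.41), Mrps5 by 1.24 (SE 0.18, adjusted p = 0.000758), Mrps22, a mitochondria-specific protein of the small subunit, by 1.20 (SE 0.35) and Mrpl57, a short protein of the large subunit, by 1.14 (SE 0.28). Mrps18a, Mrpl15, Mrps34 and Mrpl2, a bacterial-family protein near the site of peptide bond formation, fell by 1.12, 1.09, 1.02 and 0.93. All 17 genes were also among the 47 lower than at day 4, in a comparison that shares the 4-month arrays. The count was 3 without 4-month replicate 1, 7 without week 2 replicate 1 or 2, 8 without week 2 replicate 3, 4 with array weights and 5 with the 3 macrophage-marker-high arrays left out. Mrps5 was called in each of these fits.

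Compared with naive lung, where both groups hold 2 arrays of narrow range, the 4-month level was lower for few genes. At a limma adjusted p under 0.05, 5 of 71 fell and 0 rose, where 1.25% of all genes were called lower and 0.717% higher, and the median was -0.35, against -0.02 for all genes. Mrpl2 was at 6.92 and 6.10 in naive lung and at 5.50 and 4.70 at 4 months, and fell by 1.40 (SE 0.33). Mrps34 fell by 1.25 (SE 0.26), Mrps5 by 1.24 (SE 0.20, adjusted p = 0.00511), Mrpl46, a mitochondria-specific protein of the central protuberance, by 1.09 (SE 0.22) and Mrps18a by 0.94 (SE 0.23). Of 25 alternative fits, Mrps5 was called in 22, Mrps34 in 21, Mrpl46 in 20, Mrpl2 in 13 and Mrps18a in 5. In Mrps5 both 4-month arrays (5.12 and 5.29) lay below both naive arrays (6.25 and 6.65), whereas its other probe set differed by -0.22. With array weights, and in fits of these 4 arrays alone, 0 genes were called by limma, with 10 and 11 at an unadjusted p under 0.05. The count was 10 without naive replicate 1, 9 without 4-month replicate 2 and 2 without 4-month replicate 1, and it was 3 in 7 of the fits that left out an array of another group or day 4 replicate 2.

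Genes of both subunits were among those that rose at day 4 and those that fell by 4 months. Averaged over 25 small-subunit genes, the level was 5.74 ± 0.22 in naive lung (SD, n = 2), 6.24 ± 0.24 at day 4 (n = 3), 5.96 ± 0.09 at week 2 (n = 3) and 5.42 ± 0.25 at 4 months (n = 2). Over 45 large-subunit genes it was 5.87 ± 0.04, 6.45 ± 0.23, 6.12 ± 0.03 and 5.50 ± 0.23 in the same order. From day 4 to 4 months, 14 of 25 small-subunit and 33 of 45 large-subunit genes fell (56% and 73.3%, against 16.6% of all genes), with medians of -0.73 and -0.94. Of genes of bacterial families 7 of 15 in the small and 20 of 28 in the large subunit fell, and of mitochondria-specific genes 7 of 10 and 13 of 17. The difference between these classes was not tested. Sites within the large subunit were assigned to some genes only, and Mrpl4, Mrpl52 and Mrpl58 were among those assigned to none. Of the genes assigned, all 4 of the stalk and its base fell (median -1.08). So did 4 of 7 at the exit tunnel (-0.77) and 3 of 7 of the central protuberance (-0.26), read beside the same 16.6%. Among the stalk genes, Mrpl10 did not keep its fall with repeated quantile normalization, as given above. These counts depend on the assignment and do not rank the sites.

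Several genes of a fixed set were followed whether or not they passed, some of them with a known role beyond the ribosome's frame. Mrpl12, the stalk protein that also binds the mitochondrial RNA polymerase, was at 6.70 and 6.87 in naive lung, at 7.09, 6.83 and 6.83 at day 4 and at 5.48 and 6.53 at 4 months. Its change from naive to day 4 was 0.14 ± 0.25 (limma adjusted p = 0.751), although its other probe set differed by 0.86, and it fell by 0.92 from day 4 to 4 months (SE 0.25, adjusted p = 0.0154). Mrpl58, a peptidyl-tRNA hydrolase that frees stalled chains, fell by 1.13 over that interval (SE 0.26, adjusted p = 0.00603). Mrps12, at the decoding site, fell by 0.88 (SE 0.31, adjusted p = 0.0484), and Mrps16 fell by 1.47 (SE 0.32, adjusted p = 0.00411), with a difference of -2.74 on its other probe set. Of the 3 S18-family genes, Mrps18a fell, while Mrps18b, at -0.49 ± 0.31, and Mrps18c, at -0.70 ± 0.26 (adjusted p = 0.0558), did not pass. The other probe set of Mrps18b differed by -0.85 and that of Mrps18c by -0.52. Mrps30 fell by 0.94 (SE 0.21, adjusted p = 0.00454). Mrps36 differed in sign from most: it was at -0.15 ± 0.42 from naive to day 4 and at 0.64 ± 0.42 from day 4 to 4 months (adjusted p = 0.271), with 4-month arrays at 4.46 and 3.34. Its group means were 3.26 to 3.98, around the 40th percentile of all values (3.73), so these signs come from a weak signal and were not called.

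In the node the average level of the 71 genes was 6.27 to 6.65 per array over both times, which overlapped with day 4 lung (6.08 to 6.54) and lay above week 2 lung (6.00 to 6.10). At day 4, 0 of 71 genes differed between node and lung at a limma adjusted p under 0.05, where 0.978% of all genes were called higher and 1.35% lower in the node. The median difference was 0.14 (0.01 for all genes), with 58 of 71 above 0 and 4 at an unadjusted p under 0.05. The nearest to a call was Mrpl46, at 6.6, 6.62 and 6.71 in the node and 6.25, 5.83 and 5.93 in lung, higher on every node array by a mean of 0.64 ± 0.18 (adjusted p = 0.0921, and 0.0206 with array weights). At week 2, 0 of 71 genes were called by limma, where 0.334% of all genes were higher and 0.446% lower. However, 68 of 71 differences were above 0, the median was 0.38 (-0.01 for all genes), 23 genes were at an unadjusted p under 0.05, and the smallest adjusted p was 0.133. In 30 genes all 3 node arrays lay above all 3 lung arrays, against 9.97% of all genes.

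The largest week 2 difference was that of Mrpl52, at 9.26, 9.60 and 8.81 in the node and at 8.21, 8.47 and 8.13 in lung, or 0.96 ± 0.33 (limma adjusted p = 0.286). Mrpl18 was at 7.35, 7.35 and 7.14 in the node and at 6.55, 6.55 and 6.18 in lung (0.85 ± 0.27, adjusted p = 0.237), and Mrps34 at 6.22, 6.27 and 5.88 against 5.04, 5.39 and 5.72 (0.74 ± 0.21, adjusted p = 0.16). In each of the 3 genes the groups did not overlap. With array weights 12 genes were called higher in the node and 0 lower, Mrpl46 (0.71 ± 0.14, adjusted p = 0.0106) and Mrpl18 (0.89 ± 0.19, adjusted p = 0.0159) among them, and in fits of these 6 arrays alone 2 genes, Mrpl18 and Mrps16. The median was 0.32 with repeated quantile normalization. Macrophage markers were at 3.66 to 3.72 on the week 2 node arrays and at 4.17, 4.06 and 5.43 on the week 2 lung arrays, and the median was also 0.38 without the lung array at 5.43.

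From day 4 to week 2 in the node, 0 of 71 genes were called by limma (0.528% of all genes higher and 1.18% lower), the median was -0.06, with -0.00 for all genes, and 2 genes were at an unadjusted p under 0.05. Division genes were at 7.5 to 8.16 per node array at day 4 and at 5.47 to 5.50 at week 2. In lung, as given above, they were at 6.27 to 6.66 at day 4 and at 5.10 to 5.21 at week 2. The week 2 node arrays therefore lay below the day 4 lung arrays in division genes, while their averages of the 71 genes (6.27 to 6.53) overlapped with those of day 4 lung. The test of whether the change from day 4 to week 2 differed between node and lung called 0 of 71 genes by limma (0.0676% of all genes higher and 0.113% lower). Its median was 0.27, 2 genes were at an unadjusted p under 0.05, and the smallest adjusted p was 0.686, so a difference between the tissues was not shown.

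Other genes of mitochondrial protein synthesis were taken from lists of translation factors, assembly factors, tRNA synthetases, mitochondrial DNA expression, import and regulators. Their counts are read beside all genes, of which 10.8% were called higher at day 4 than in naive lung and 16.6% lower at 4 months than at day 4. Among 13 translation factors, 4 (30.8%) rose and 0 fell from naive to day 4 in the lung (limma adjusted p under 0.05), with a median of 0.45. Oxa1l, which inserts new chains into the inner membrane, was at 6.22 and 6.48 in naive lung, at 8.05, 7.81 and 7.84 at day 4, at 7.40, 7.5 and 7.35 at week 2 and at 6.65 and 6.74 at 4 months. It rose by 1.55 ± 0.19 at day 4 (adjusted p = 5.19e-05), and the 4 lung groups did not overlap. Tsfm, the exchange factor of the elongation factor Tufm, was at 3.65 and 3.46 in naive lung and at 4.81, 5.05 and 4.65 at day 4, a rise of 1.28 ± 0.22 (adjusted p = 0.00106). Mtfmt, which formylates the initiator tRNA, rose by 0.90 ± 0.24. Tufm itself was at 7.27 and 6.97 in naive lung and at 6.57, 6.61 and 6.53 at day 4, a change of -0.55 ± 0.21 that did not pass (adjusted p = 0.0834). From day 4 to 4 months 6 of the 13 (46.2%) fell and 0 rose, with Gfm1, the translocation factor, falling by 1.22 (SE 0.19), Oxa1l by 1.21 (SE 0.19) and Tsfm by 1.11 (SE 0.22).

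Genes of protein import and chaperones encode the machinery that brings the ribosomal proteins into the organelle and folds them. From naive to day 4, 8 of 22 (36.4%) rose and 0 fell, where 10.8% of all genes were called higher, with a median of 0.58. The largest rises were those of Timm17b, a part of the inner membrane channel, at 1.64 ± 0.29, Tomm22, a receptor of the outer membrane, at 1.48 ± 0.28, and Tomm70a, another receptor, at 1.37 ± 0.26. From day 4 to 4 months 14 of 22 (63.6%, against 16.6% of all genes) fell and 0 rose, led by Timm8a1 (by 1.88, SE 0.35), Timm13 (by 1.40, SE 0.32) and Tomm20 (by 1.24, SE 0.17). Of 13 genes of mitochondrial DNA expression, 2 (15.4%, near the 10.8% of all genes) rose at day 4, Ssbp1, which coats single-stranded mitochondrial DNA, by 1.47 ± 0.28 and Pnpt1, an RNA-degrading enzyme, by 1.03 ± 0.32. Tfam, which packages mitochondrial DNA, was at 5.72, 5.57 and 5.67 at day 4 and at 4.01 and 3.99 at 4 months, and fell by 1.65 (SE 0.26, limma adjusted p = 0.000413), 1 of 4 genes of this list to fall (30.8%). Polrmt, the mitochondrial RNA polymerase, changed by -0.11 ± 0.21 over that interval (adjusted p = 0.732).

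Assembly factors help to build the ribosome, and tRNA synthetases charge the tRNAs it reads. Of 23 assembly factors, 2 rose at day 4 against naive lung (Mtg1 by 1.12 ± 0.34 and Dhx30 by 0.67 ± 0.17) and 4 fell from day 4 to 4 months, among them Noa1, a GTPase of ribosome assembly (by 1.24, SE 0.22), Tfb1m, which methylates the small ribosomal RNA (by 1.01, SE 0.28), and Rpusd4 (by 0.98, SE 0.32). The medians of this list were 0.18 and -0.24, and its shares called, 8.7% higher and 17.4% lower, were near those of all genes (10.8% and 16.6%). Of 16 tRNA synthetases, Lars2 rose by 0.95 ± 0.22 at day 4, and Fars2 (by 1.00, SE 0.23) and Cars2 (by 0.86, SE 0.21) fell by 4 months, so 1 and 2 of 16, shares below those of all genes. Of 3 measured proteins of this ribosome with other names, 0 were called at day 4 against naive lung by limma, with 0 at an unadjusted p under 0.05, and 1 fell from day 4 to 4 months, Gadd45gip1 (by 0.78, SE 0.23). A difference between these lists and the 71 genes was not tested.

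Among 10 regulators 2 rose at day 4 (20%, against 10.8% of all genes), both of them subunits of the ETS-family factor GABP. A difference between this short list and all genes was not tested. Gabpa, its DNA-binding subunit, was at 6.05 and 7.21 in naive lung, at 7.53, 7.45 and 7.35 at day 4 and at 5.95 and 6.18 at 4 months. It rose by 0.81 ± 0.26 (limma adjusted p = 0.0407) and fell by 1.38 from day 4 to 4 months (SE 0.26, adjusted p = 0.00143). Gabpb1 rose by 0.95 ± 0.21 and fell by 0.61 (SE 0.21). Nrf1 fell by 0.65 from day 4 to 4 months (SE 0.20, adjusted p = 0.0268). Myc, a regulator of ribosome production, was highest in the lung at week 2: it was at 7.58 and 7.62 in naive lung, at 7.11, 7.19 and 7.09 at day 4, at 7.83, 8.08 and 7.81 at week 2 and at 6.75 and 6.85 at 4 months. It rose by 0.78 ± 0.18 from day 4 to week 2 (adjusted p = 0.0341) and fell by 1.11 from week 2 to 4 months (SE 0.20, adjusted p = 0.00292). Ppargc1a, a coactivator of mitochondrial genes, was at 2.05 to 2.77 on all arrays with 0 calls by limma in 10 comparisons, and its relative Ppargc1b changed by 0.23 ± 0.21 at day 4 (adjusted p = 0.486).

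**Figure D5:**
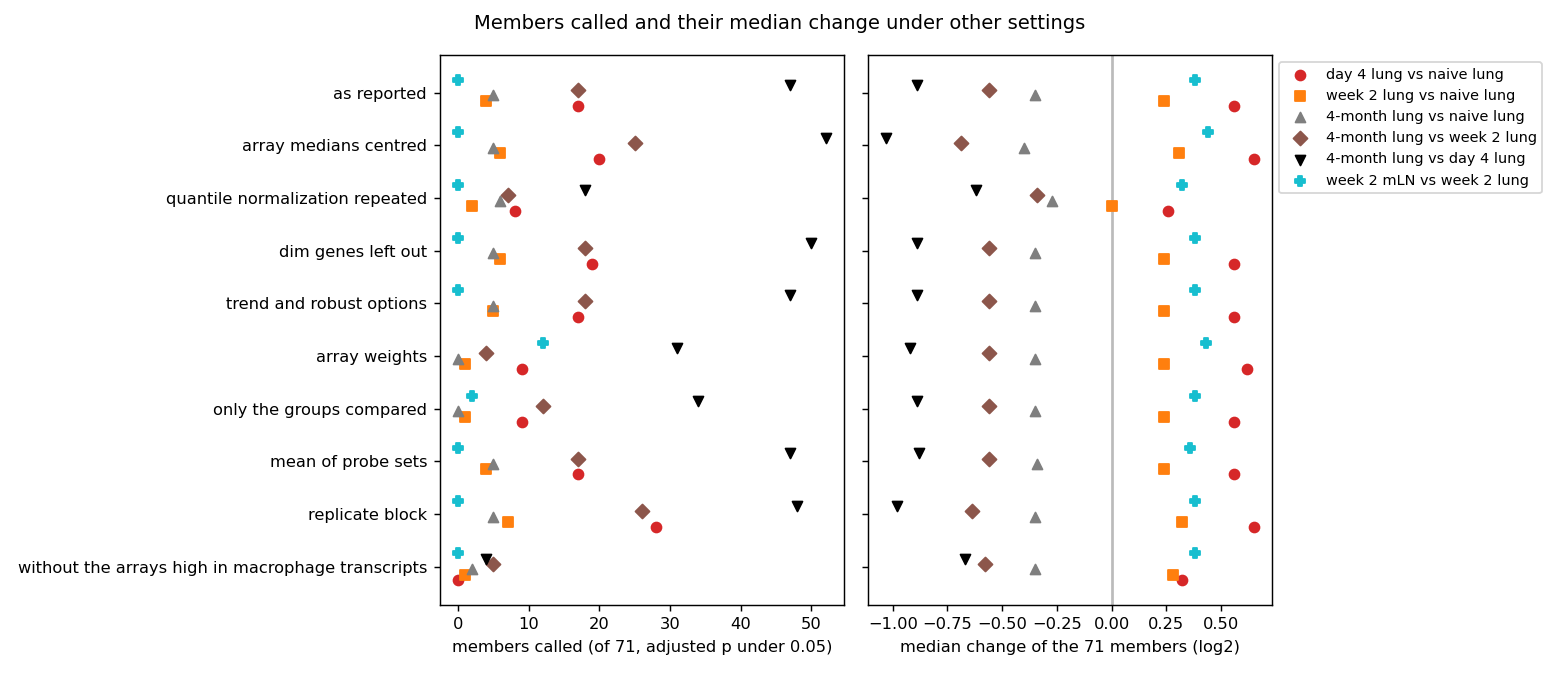
Number of the 71 genes called (left) and their median change in log2 (right) for 6 comparisons (symbols) under the fit as reported and 9 other settings (rows). The median of 4 months against day 4 stayed between -1.03 and -0.62, while its count ran from 4 to 52, and the median of week 2 against naive lung was -0.00 with repeated quantile normalization.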

How the data were processed

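RNA of isolated ILC2s was measured on 16 single-colour arrays in 6 groups. Trizol was used for RNA extraction and a Nugen Encore biotin kit for labelling, per the labels' protocols. Each deposited value is a log2 probe set signal; the submitters' processing notes name Expression Console and RMA as the authors' tools, and the sources used here name no version or genome build. Since RMA quantile-normalizes arrays processed together, the values cannot show a difference in RNA content per cell, and scanner files were not used here. Of 41345 probe sets, 23521 had 1 gene symbol, 1814 several and 16010 none, which left 22180 genes.

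Group means of all genes were fitted with limma 3.58.1 in R 4.3.3 on all 16 arrays, with 10 residual and 6.52 prior degrees of freedom, no filter and no block. The threshold was a two-sided p under 0.05, adjusted by Benjamini-Hochberg across all genes. Changes are differences of group means with limma's moderated standard error, and fold sizes are taken from them. The 71 genes, the gene lists and the motifs were chosen with earlier results of these data known. Named genes are, per comparison, up to 8 called genes with the largest rises and falls, up to 3 called genes per list, and a fixed set; others are said to be picked after their values were seen or complete a count. Same-numbered arrays were not treated as pairs. Alternatives were other normalizations, filters, variance models, array weights, arrays fitted and probe set rules, and leaving out each array; a fit without the 3 macrophage-marker-high arrays was added after seeing the data. The procedure was tested on simulated data. Plots came from matplotlib 3.10.9 (Python 3.11.15).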

Additional observations from a re-analysis of the deposited data

How the results depend on the processing

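With 2 or 3 arrays per group and narrower signal ranges in 2 of the groups, counts of called genes moved more than medians did. Counts of the 71 genes called are given in the order day 4 against naive, week 2 against naive, 4 months against naive, 4 months against week 2 and 4 months against day 4, all in lung; as reported they were 17, 4, 5, 17 and 47. With quantile normalization repeated they were 8, 2, 6, 7 and 18. With array weights they were 9, 1, 0, 4 and 31, and 12 genes differed from day 4 to week 2 in lung, 1 between node and lung at day 4 and 12 at week 2. With only the groups compared they were 9, 1, 0, 12 and 34, with 3 from day 4 to week 2 in lung and 2 between node and lung at week 2. In a fit without the 3 macrophage-marker-high arrays, which was chosen after seeing the data, they were 0, 1, 2, 5 and 4. At the limma counts of 0 in this sequence, 10 (array weights), 11 (groups compared only) and 10 genes (without the macrophage-marker-high arrays) were at an unadjusted p under 0.05. Array medians centred, dim genes left out, trend and robust options and the mean of probe sets gave counts within 1.5 times those reported. Mrpl10, 4 months against day 4, turned from -0.56 to 0.02 with repeated quantile normalization, the only reversal among 111 called values of named genes over 25 alternatives. Many of these values lost their call, however: 45 with repeated quantile normalization, 49 with array weights and 52 with only the groups compared. The 111 values include genes of the other lists, such as translation factors, import genes and regulators. The causes of these moves were not tested.

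Leaving out each array in turn gave 11 to 23, 2 to 10, 2 to 10, 3 to 25 and 11 to 50 genes in the same order. It gave 0 to 1 from day 4 to week 2 in lung, 0 to 1 between node and lung at week 2 and 0 in the other node comparisons, where limma found 2 (week 2 against day 4), 4 (day 4 node against lung) and 2 (interaction) at an unadjusted p under 0.05 with all arrays. Replicate numbers were not treated as pairs, and the sample titles do not say whether they pair arrays. Deviations from the group means correlated at -0.104 to 0.184 between same-numbered arrays and at -0.173 to 0.137 between others. The highest value was that of replicate 3 of day 4 lung and of day 4 mLN. These values do not settle whether the numbers pair arrays. With the replicate number as a block the counts were 28, 7, 5, 26 and 48, with 1 from day 4 to week 2 in lung.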

Other observations

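Of the 9 genes with 2 probe sets, the pair differed most in Mrps16, at -1.47 on the probe set used and -2.74 on the other for 4 months against day 4 in lung, and the sign was the same on both in that comparison for all 9. For day 4 against naive lung the signs differed in Mrpl10, at -0.09 and 0.33, and in Mrps5, at -0.03 and 0.17. These pairs were picked out after their values were seen.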
